A study of Mus musculus with 3 samples.

Results

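A total of 825 cytosines in mouse mRNA were called as 5-methylcytosine (m5C) in germinal vesicle (GV) oocytes, metaphase II (MII) oocytes and 1-cell embryos alike and already had an m5C level of 50% or more in the GV oocyte. The m5C level is the percentage of reads that keep C at a position after bisulfite treatment. These 825 sites made up 13.4% of the 6145 sites present in the lists of all 3 stages, which are called persistent sites here, and the lists together held 40298 distinct sites. They lay in 731 genes, of which 646 held 1 such site, 76 held 2 and 9 held 3. As they were chosen by the measured GV level, their GV levels and every difference from GV are given as a description and without a test, and only the step from MII oocyte to 1-cell embryo was tested.

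The study followed mRNA methylation from oocyte maturation to fertilization, with 1 RNA bisulfite library for each stage and hence no replicate check of any value. All animals were wild-type C57BL/6J females of 7 to 8 weeks. GV oocytes, which are full grown and arrested before the first meiotic division, were taken from ovaries 48 h after PMSG (pregnant mare serum gonadotrophin, 10 IU). MII oocytes, which are ovulated and ready for fertilization, were taken 12 h after 5 IU of human chorionic gonadotrophin (hCG) from females primed with 10 IU of PMSG. The 1-cell embryos came 24 h after 5 IU of hCG from females primed with 5 IU of PMSG and mated with C57BL/6J males. Each library pooled many oocytes or embryos, with the zona pellucida removed by hyaluronidase. The labels name polyadenylated RNA, whereas the study's methods describe removal of ribosomal RNA for oocytes and embryos of the mouse and a higher hCG dose before MII collection. The 1-cell embryo list used here also differs in coverage and level from the list in the supplement of the study, so its values describe the deposited list alone. Stage and library cannot be told apart.

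RNA m5C is a methyl group on carbon 5 of cytosine. Bisulfite deaminates unmodified C to uracil, which is read as T, and leaves m5C as C. In animal mRNA the mark is placed mainly by NSUN2, whose substrates have a G-rich stretch 3′ of the site at the 5′ end of a stem-loop (Type I), and by NSUN6, which recognizes CUCNA in a loop (Type II). Full-grown oocytes transcribe very little, and the embryo first lives on stored maternal mRNA, which is degraded in waves from meiotic resumption on.

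The sequences below show the bases around sites on which the results turn, read 5′ to 3′ on the RNA strand from the GRCm38 genome of RefSeq and written with T for U. Each window holds 21 bases, and the capitals mark the site C and the 4 bases after it, where the motifs of Type I and Type II lie.
Zbed3, chr13:95336474-95336494, plus strand: ccagcgggagCTGGAgctgga
Insm1, chr2:146223523-146223543, plus strand: gctttctacgCGGGGcccgac
Tent5c, chr3:100470417-100470437, minus strand: tgagctgtttCAGGGttaaaa
Btg4, chr9:51117943-51117963, plus strand: tctggcacatCTTCTgatgaa
Tet3 upstream site, chr6:83368804-83368824, minus strand: gggatgggaaCCGGGgatttc
Tet3 downstream site, chr6:83368803-83368823, minus strand: ggatgggaacCGGGGatttca
Ccni, chr5:93182925-93182945, minus strand: gctgactactCGGGGtgagac
Nrg1, chr8:31968057-31968077, minus strand: ggttcaagaaCGGGAatgagc
Spint1 first site, chr2:119237984-119238004, plus strand: ggccaccttcCTGGGttcccc
Spint1 second site, chr2:119238185-119238205, plus strand: ctatcttactCAGGAgcttta
Tent5b Type II site, chr4:133486710-133486730, plus strand: cgttcgcgccCTCCAgcgata
Hif1a, chr12:73942051-73942071, plus strand: gagagcaattCTCCAagccct
Pard3, chr8:127398674-127398694, plus strand: ctcacactccCTCTAcagtgg
The Zbed3, Insm1, Tent5c and Btg4 windows are those of deep or highly methylated sites, and that of Btg4 has no G among the 4 bases after the C. The Tet3 windows overlap by all but 1 base, since both cytosines of 1 CC were members. Ccni and Nrg1 had the largest rise and fall after the MII stage among members with at least 50 reads at both stages, the Spint1 sites parted from each other, and the last 3 windows are Type II.

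Depth differed between the stages. Reads at called sites summed to between 2616279 at the 1-cell stage and 5285011 at MII, and the median coverage over the sites of each list was 121 reads at GV, 107 at MII and 58 at the 1-cell stage. At the 825 sites it was 250, 214 and 59 reads in that order, and 337 of them had under 50 reads at the 1-cell stage against 38 at GV and 42 at MII. The coverage of a site at the 1-cell stage was 0.274 times that at GV (median) and 0.276 times at the other 5320 persistent sites. In bulk samples, fewer cells and less RNA per cell cannot be told apart, and coverage was not normalized. Of 20 oocyte marker genes, 13, 16 and 18 had a called site at GV, MII and the 1-cell stage. Of 19 cumulus and granulosa cell markers, 0, 3 and 2 had one, at 20 to 96 reads, and of 7 sperm markers only Prm2 had one, in both oocyte lists at 22 to 43 reads and not in the 1-cell list. None of these sites of other cell types was a member. A transcript without a called m5C site is not in the lists, so these counts do not measure how much RNA of other cells was present.

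The GV list held 1756 sites at 50% or more. Of these, 1632 were also in the MII list but only 829 in the 1-cell list, and 825 (47.0%) were in both. The 927 that were missing from the 1-cell list had a median GV coverage of 58 reads, and 640 of them lay in genes with another called site there. A missing site may be unmethylated, methylated below the limits of the lists or covered by too few reads. Of the members, 600 had a 95% exact binomial interval of the GV level that lay wholly at or above 50%. The intervals of site levels cover counting error of the reads only, because reads made by PCR are not independent molecules. Intervals of shares and medians in this report are taken over sites. Several members were at exactly 50% at GV. Those named, by their lowest coverage over the stages, were in Ngdn (261 of 522 reads), Tsc22d4 (152 of 304 reads) and Pak4 (195 of 390 reads). Nearest below 50% were Kpna7 (1332 of 2665 reads), Ipo8 (581 of 1163 reads) and Elac2 (191 of 383 reads), and the GV intervals of all 6 included 50%.

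The median level of the members was higher at each later stage. It was 63.9% at GV (quartiles 56.1% and 75.6%), 72.2% at MII (63.2% and 82.7%) and 87.2% at the 1-cell stage (72.0% and 100%). At the other persistent sites the medians were 19.2%, 25.4% and 41.1%. The counts at 50% or more were 778 (94.3%) at MII and 777 (94.2%) at the 1-cell stage, and 738 sites stayed at or above 50% at every stage. In 120 sites the level was 80% or more at all 3 stages. Below 50% were 47 sites at MII and 48 at the 1-cell stage, of which 8 were the same. The lists leave out any site under 10% or with fewer than 5 unconverted reads. A site that fell below either limit was therefore not counted as persistent. With under 50 reads, as at 337 members at the 1-cell stage, the limit of 5 reads lies above 10%.

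**Figure D1:**
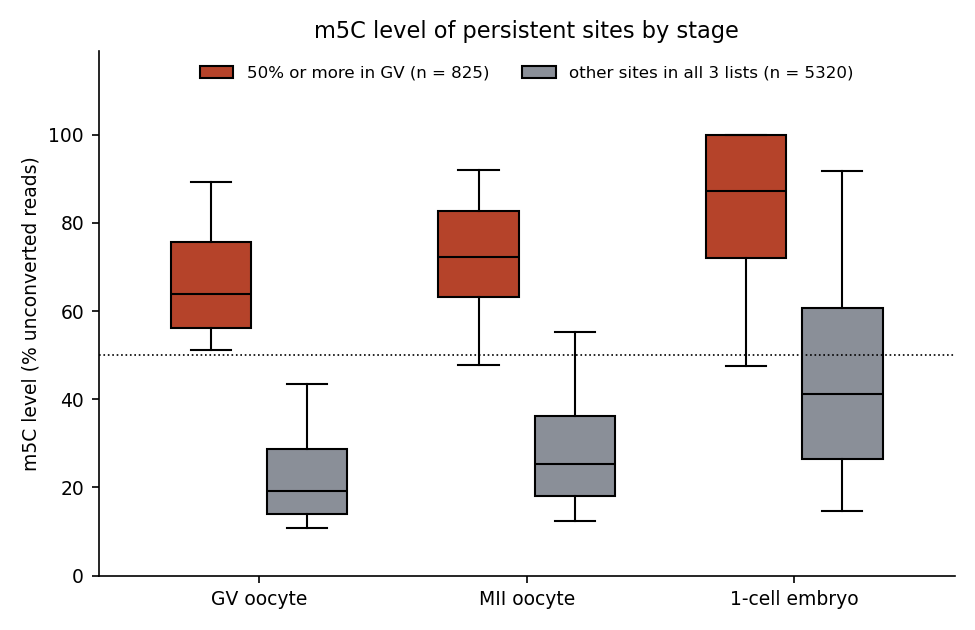
Boxes give the median and quartiles of the m5C level in percent of unconverted reads at each stage, and whiskers run from the 5th to the 95th percentile; red boxes are the 825 sites at 50% or more at GV and grey boxes the other 5320 sites in all 3 lists. The dotted line marks 50%, which separates the groups at GV by choice of the sites, and the upper quartile of the red box at the 1-cell stage lies at 100%.

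The order of the sites was largely kept between the oocyte stages and less so afterwards. Across the 825 sites Pearson's r was 0.71 between GV and MII levels, 0.38 between MII and 1-cell levels and 0.38 between GV and 1-cell levels, as a description, since sites share the libraries and in part the genes. Over the 234 sites with at least 100 reads at every stage the values were 0.86, 0.60 and 0.53. Spearman's rho, which compares ranks, was 0.74, 0.39 and 0.39 over the 825 sites and 0.84, 0.62 and 0.58 over the 234. The choice of members narrowed the range of GV levels, which can alter the correlations with GV. Sites that started at 50% to under 60% at GV (n = 326) had medians of 63.7% at MII and 77.6% at the 1-cell stage. Those at 80% or more at GV (n = 148) had medians of 88.1% and 100%, and all 148 remained at 50% or more at MII and 147 of them at the 1-cell stage.

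From GV to MII the median difference was 6.36 percentage points, and 638 sites were above and 186 below their GV level at MII. From MII to the 1-cell stage the median difference was 11.3 percentage points (95% interval of the median 9.82 to 12.5), against 13.5 at the other persistent sites, and 642 sites were higher and 183 lower. The headroom below 100% was smaller for the members, with a median of 27.8% converted reads at MII against 74.6%. On the log2 odds scale, which takes this into account, the median difference was 1.21 (1.00 to 1.43) for the members and 0.98 (0.94 to 1.02) for the others. With at least 100 reads at every stage these values were 0.75 (n = 234) and 0.73 (n = 1845). The intervals of these medians were taken over sites, which share 1 library per stage, and do not give the uncertainty of a stage difference. Altogether 490 sites (59.4%) were higher at both steps, 35 lower at both, 148 higher and then lower and 151 lower and then higher.

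A two-sided Fisher's exact test on unconverted and converted reads was made for each of the 8015 sites in both the MII and the 1-cell list, with Benjamini-Hochberg adjustment over all of them. It compares the reads of these libraries and not the conditions. Of the members, 402 (48.7%) were higher at the 1-cell stage at an adjusted p under 0.05, where 51.3% of all tested sites were. A further 46 members (5.58%) were lower, where 2.45% of all tested sites were, and 377 passed in neither direction. The share with a rise was thus near that of all sites. The share with a fall is read with the limits of the lists in mind. A site with a low level at MII cannot fall far without leaving the 1-cell list at 10% or at 5 unconverted reads. When every read count was divided by 5, as if 5 reads came from 1 molecule, 41 members were higher and 4 lower, against 577 (7.20%) and 5 (0.0624%) of all tested sites.

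**Figure D2:**
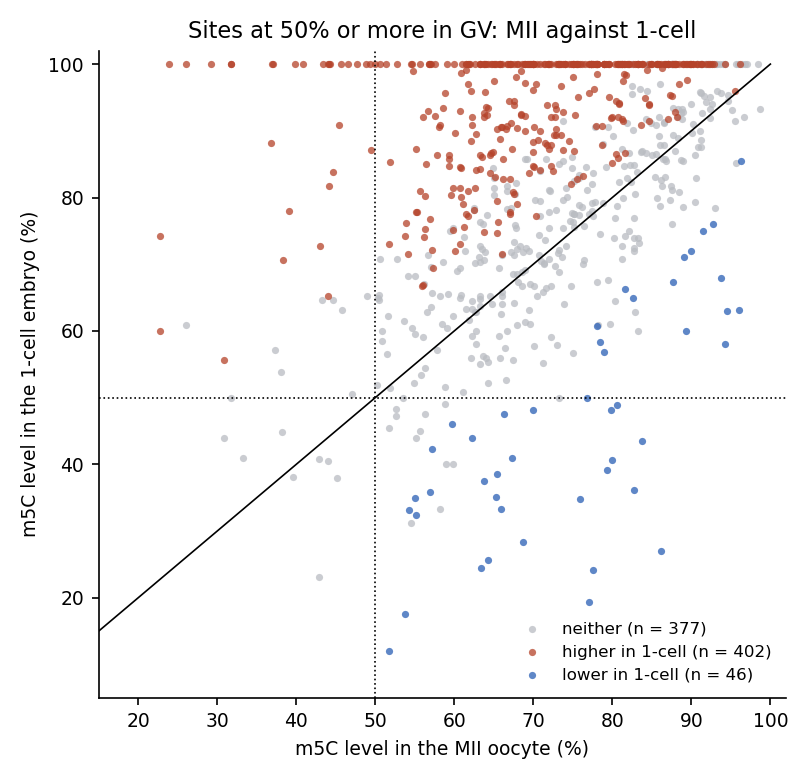
Each point is 1 of the 825 sites, with its m5C level at MII on the horizontal and at the 1-cell stage on the vertical axis, both in percent of reads; red and blue points were higher (n = 402) and lower (n = 46) at the 1-cell stage by Fisher's exact test and grey points passed in neither direction (n = 377). Dotted lines mark 50%, the diagonal marks equal levels, and the row of points along the top edge is made of sites at exactly 100%.

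The 402 higher sites had medians of 70.2% at MII and 100% at the 1-cell stage, and 211 of them had no converted read left. The 46 lower sites, each in a gene of its own, had medians of 77.9% at MII and 43.7% at the 1-cell stage, and 29 of them ended under 50%. Their differences ran from -10.9 to -59.2 percentage points. Both groups were formed by the difference between MII and the 1-cell stage, so their medians at these stages follow in part from that choice. The GV medians of both groups were alike, at 63.5% and 63.6%. Coverage at the 1-cell stage was 71 reads for the higher, 59 for the lower and 52 for the remaining sites (medians).

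A level of exactly 100% was found at 254 members (30.8%) at the 1-cell stage and at none in either oocyte, and at 197 of the other persistent sites (3.70%) at the 1-cell stage. At the 1-cell stage it went with coverage. At GV and MII, 38 and 42 members had under 50 reads, and none of these was at 100%. Without a converted read were 164 of the 337 members under 50 reads at the 1-cell stage (48.7%), 72 of the 254 members at 50 to 99 reads (28.3%) and 18 of the 234 members at 100 reads or more (7.69%). The part of coverage in the levels of the 1-cell embryo was not tested. The deepest of these sites, listed after their values were seen, was in the CDS of Thop1, an oligopeptidase gene, with 86.5% of 406 reads at GV, 91.3% of 356 reads at MII and 100% of 226 reads at the 1-cell stage (exact test, adjusted p = 9.75e-07; 95% interval of the last level from 98.4%). A site in the CDS of Esr2, which encodes estrogen receptor beta, had 74.1% of 576, 86.7% of 488 and 100% of 148 reads (exact test, adjusted p = 1.82e-07). Neither Thop1 (adjusted p = 0.322) nor Esr2 (0.210) passed the exact test when reads were divided by 5. Sites in Mfsd14b, Zfp592, Lrrfip2 and Fbxw20 were also at 100% of 143 to 176 reads.

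**Figure D3:**
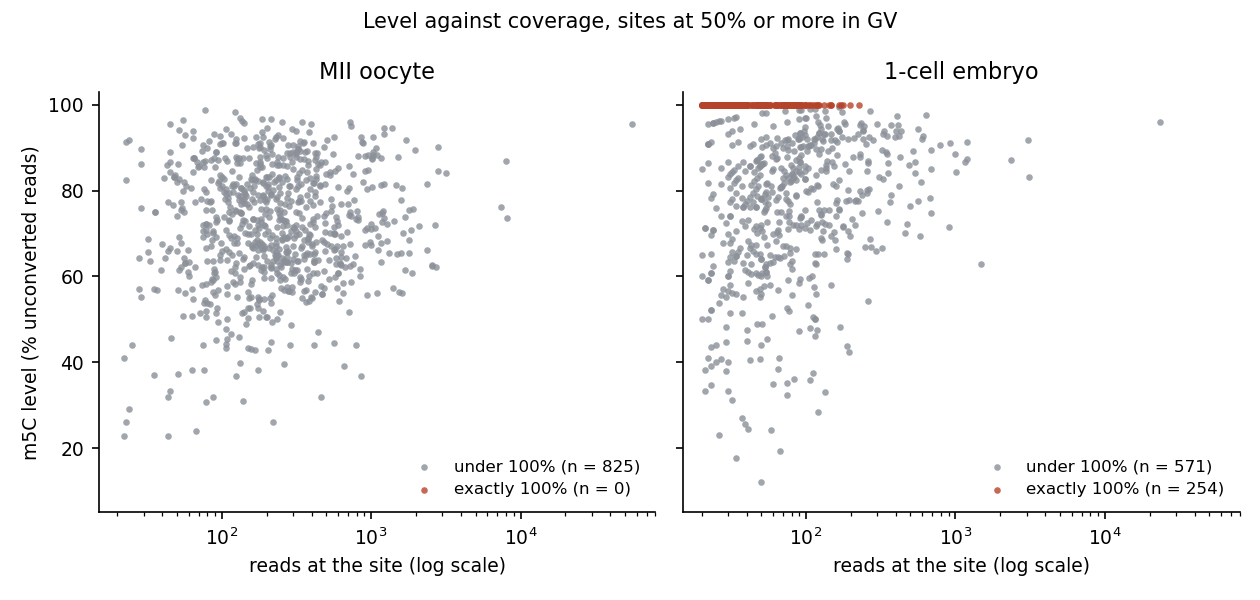
The m5C level in percent is plotted against the number of reads at each of the 825 sites on a log axis, at MII (left) and at the 1-cell stage (right), with sites at exactly 100% in red. No site reached 100% at MII, while 254 did at the 1-cell stage, and these thin out above 100 reads.

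The 8 members of highest coverage had at least 1166 reads at every stage. The site in exon 2 of Zbed3 (ENSMUSG00000041995, chromosome 13, position 95336484, CDS), which encodes a member of the subcortical maternal complex, had a level of 94.1% of 44791 reads at GV, 95.5% of 55823 reads at MII and 96.0% of 23303 reads at the 1-cell stage. The level was nearly flat, and the last step of 0.459 points passed the exact test on these reads (adjusted p = 0.00900) but not with reads divided by 5 (adjusted p = 0.535). The Btg4 site (chromosome 9, position 51117953, CDS of exon 4) was at 77.8% of 7095 reads, then 87.0% of 7940 reads and 91.7% of 3062 reads (exact test for the last step, adjusted p = 2.02e-11). BTG4 recruits the CCR4-NOT deadenylase to maternal mRNAs and is needed for their decay. The level of the site was higher at each later stage.

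The site in exon 3 of Bpgm (chromosome 6, position 34504371, CDS), a gene of red cell glycolysis, had the widest difference between GV and the 1-cell stage among these 8. It went from 56.5% of 9516 reads at GV to 73.7% of 8129 reads at MII and 87.1% of 2343 reads at the 1-cell stage (exact test for the last step, adjusted p = 9.19e-43). A Type I site of Tent5b (chromosome 4, position 133480412, CDS of exon 1), which belongs to the non-canonical poly(A) polymerases, took a like course from 57.8% of 2616 to 72.0% of 2667 reads and 87.3% of 1186 reads (exact test, adjusted p = 9.46e-25). The rise in Ybx3, a cold shock domain gene of RNA binding, was from 76.5% at GV to 84.6% at MII and 91.4% of 1196 reads at the 1-cell stage (exact test for the last step, adjusted p = 2.20e-08). With reads divided by 5 it did not pass the exact test (adjusted p = 0.108). In Yap1, the coactivator of the Hippo pathway, the level was 75.1%, 84.2% and 86.6%, and the last step did not pass (exact test, adjusted p = 0.0863).

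AU022751 on chromosome X held 2 deep members 1011 bases apart in the CDS of exon 1. The site at position 6082216 had 64.6% of 7200, 76.3% of 7398 and 83.2% of 3100 reads, and rose over the last step (exact test, adjusted p = 5.78e-14). The site at position 6083227 had 51.7% of 2558, 62.6% of 2548 and 62.9% of 1490 reads, with no called difference over the last step (exact test, adjusted p = 0.896). The sites, on the same exon, differed in level at every stage, and the gap between them was widest at the 1-cell stage.

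**Figure D4:**
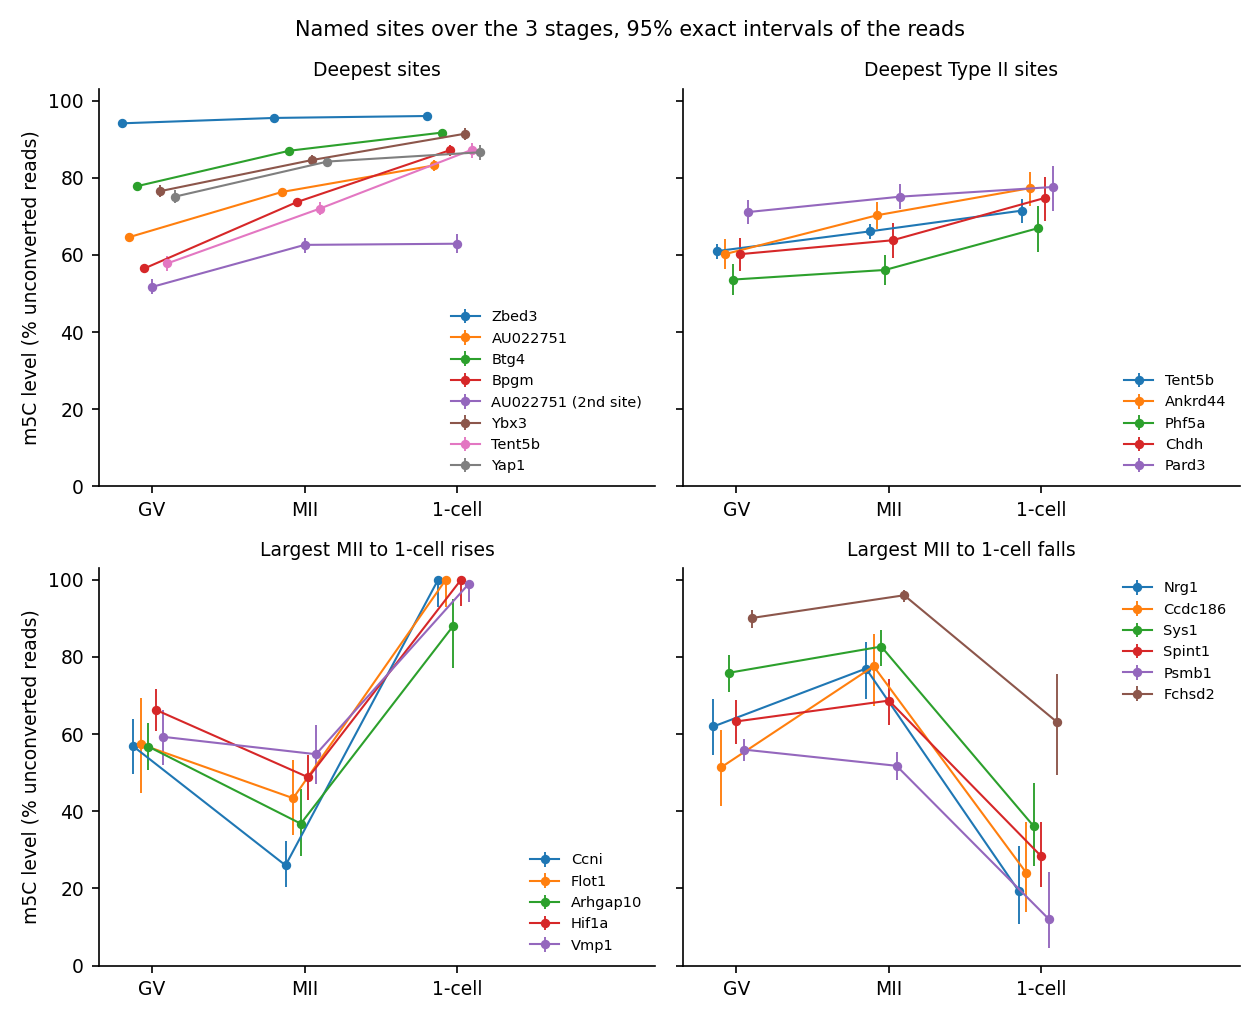
The m5C level in percent of unconverted reads is plotted over GV, MII and the 1-cell stage for the 8 deepest sites, the 5 deepest Type II sites and 5 of the largest rises and the 6 largest falls from MII to the 1-cell stage with at least 50 reads at both; bars are 95% exact binomial intervals of the reads, with 1 library per stage. The Zbed3 line is flat near the top, the sites with the largest rises converge at 88.1% to 100%, and those with the largest falls spread from 12.0% to 63.2% at the 1-cell stage.

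Among members with at least 100 reads at every stage, the 8 with the highest GV levels had 85.4% to 100% at the 1-cell stage. Insm1, which encodes a zinc finger factor of neuroendocrine cells, had a site in exon 1 (chromosome 2, position 146223533, CDS) at 96.0% of 299 reads at GV, 96.7% of 215 reads at MII and 92.0% of 113 reads at the 1-cell stage. The 3′ UTR site of Tent5c (chromosome 3, position 100470427), a paralog of Tent5b, was at 94.9% of 1499, 94.6% of 1214 and 95.4% of 411 reads. A 3′ UTR site of Foxo3, the forkhead factor that holds back primordial follicles, was at 92.9%, 93.3% and 95.9%. The sites of Spint1 (position 119238195), Usp38 and Fam122a, a gene of a phosphatase 2A inhibitor, were at 91.4% to 93.4% at GV and at 85.4% to 91.9% at the 1-cell stage. Tex19.1, a germline gene of retrotransposon control, went from 92.9% of 406 reads to 96.1% of 254 and 100% of 172 reads. Apart from Zbed3 it was the only one of these 8 sites whose last step passed (exact test, adjusted p = 0.0151; 0.848 with reads divided by 5).

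The largest rises among members with at least 50 reads at both stages, of which 5 are given here, began from MII levels of 26.0% to 54.8%. The 3′ UTR site of Ccni (cyclin I; chromosome 5, position 93182935) had 56.9% of 204 reads at GV, 26.0% of 219 reads at MII and 100% of 50 reads at the 1-cell stage (exact test for the last step, adjusted p = 1.46e-22). Flot1, a membrane scaffold gene, went from 57.4% to 43.4% of 106 reads and then 100% of 51 reads (exact test, adjusted p = 4.37e-13). The Type II site of Hif1a (chromosome 12, position 73942061, CDS of exon 12), the oxygen-responsive transcription factor, was at 66.3% of 303, 48.8% of 289 and 100% of 52 reads (exact test, adjusted p = 1.42e-13). Arhgap10 reached 88.1% of 59 reads from 36.8%, and Vmp1, an autophagy gene, 98.9% of 93 reads from 54.8% at MII. In these 5 sites the GV level was higher than the MII level. For those under 50% at MII this followed from the choice of members at 50% or more at GV. Picking the largest rises also favours low MII levels. With reads divided by 5 the site of Flot1 did not pass the exact test (adjusted p = 0.0540).

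The 6 largest falls under the same condition were found in genes of unlike function. Picking the largest falls favours high MII levels, as picking the largest rises favours low ones. The CDS site of Nrg1 (chromosome 8, position 31968067, exon 2), which encodes a ligand of ERBB receptors, had 62.0% of 184 reads at GV, 77.0% of 135 reads at MII and 19.4% of 67 reads at the 1-cell stage (exact test, adjusted p = 8.78e-14). Its neighbouring bases CGGGA are among the most frequent of the members. The 3′ UTR site of Sys1, a Golgi trafficking gene, went from 75.9% to 82.7% of 272 reads and then 36.1% of 83 reads (exact test, adjusted p = 7.51e-14). That of Fchsd2, an endocytosis gene, went from 90.1% to 96.0% of 724 reads and then 63.2% of 57 reads (exact test, adjusted p = 7.74e-12). Ccdc186 fell from 77.6% of 85 to 24.1% of 58 reads (adjusted p = 2.48e-09 in the exact test). Psmb1, which encodes a core subunit of the proteasome, fell from 51.8% of 711 to 12.0% of 50 reads (adjusted p = 1.13e-07 in the exact test). With reads divided by 5, neither Ccdc186 (adjusted p = 0.0918) nor Psmb1 (0.135) passed the exact test. The Psmb1 level was the lowest of all members at the 1-cell stage, before Slc25a11 (17.6% of 34 reads) and Nrg1. The lowest MII levels were those of Tpst2 (22.7% of 44 reads), Sall2 (22.7% of 22 reads) and Slc41a1 (23.9% of 67 reads), and these sites had 74.2%, 60% and 100% at the 1-cell stage at 31 to 50 reads. The rise of 76.1 percentage points in Slc41a1, a magnesium transporter gene, was the widest of all members (adjusted p = 2.69e-13 in the exact test).

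Spint1, an inhibitor of cell surface serine proteases, held a site that fell and a site with no called difference in the CDS of exon 1. Its first site (chromosome 2, position 119237994) was at 63.3% of 294 reads at GV, 68.7% of 252 reads at MII and 28.3% of 120 reads at the 1-cell stage (exact test, adjusted p = 5.69e-12). The second, 201 bases downstream, was at 93.4% of 335, 92.3% of 259 and 91.9% of 148 reads. Another site, in exon 6, was at 55.6%, 72.1% and 81.0% of 158 reads, a difference over the last step that did not pass (exact test, adjusted p = 0.0741).

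Tet3, which encodes the enzyme that oxidizes DNA methylation in the zygote, held 3 members. The adjacent cytosines at positions 83368814 and 83368813 on the minus strand of chromosome 6 lay in the CDS and had nearly equal coverage. The upstream C was at 89.4% of 1669 reads at GV, 91.9% of 1705 reads at MII and 94.3% of 563 reads at the 1-cell stage. The downstream C was at 51.1% of 1670, 61.5% of 1689 and 77.5% of 560 reads, and it rose over the last step (exact test, adjusted p = 2.66e-11) while the upstream one did not pass (adjusted p = 0.107). A Type II site in the 3′ UTR (position 83364716) was at 56.7% of 1089, 61.8% of 844 and 61.7% of 81 reads. In Entpd5 the same kind of pair had 52.3% and 89.1% at GV and 93.4% and 100% at the 1-cell stage. The adjacent pair in Nol4l was closer, at 73.7% and 71.3% at GV.

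The other genes with 3 members included Khsrp, Akt1s1, Insm1, Brdt, Axin2 and Myo19. In Khsrp, a gene of an RNA-binding protein that promotes mRNA decay, the 3 CDS sites were close in level, with 64.5% to 69.6% at GV, 72.3% to 75.3% at MII and 77.5% to 92.3% at the 1-cell stage. The 3 sites of Akt1s1, which encodes an inhibitory partner of mTORC1, lay 116 and 84 bases apart in its 3′ UTR and had 56.4% to 62.2%, 63.8% to 67.5% and 73.3% to 92.1%. In Insm1, the site named above had as neighbours a Type I site at 86.9%, 96.3% and 85.4%, which fell over the last step (exact test, adjusted p = 0.00894; 0.638 with reads divided by 5), and a Type II site at 57.3%, 63.7% and 92.6% of 94 reads, which rose (exact test, adjusted p = 1.85e-07; 0.117 with reads divided by 5). In Axin2, a Wnt feedback gene, the 5′ UTR site was at 51.9%, 72.2% and 84.7%, and the site in exon 8 at 89.7%, 95.1% and 93.1%. In Brdt, a gene of a germline bromodomain protein, sites 3 bases apart had 59.1% and 57.1% at GV and 100% of 63 reads and 84.5% of 71 reads at the 1-cell stage. The sites of Myo19, a mitochondrial myosin gene, ran from 64.5% to 100% at the 1-cell stage at 31 to 73 reads. Over all 94 pairs of neighbouring members in a gene, the median gap between the levels of a pair was 11.2 percentage points at GV, 11.1 at MII and 15.4 at the 1-cell stage. From MII to the 1-cell stage both sites were higher in 50 pairs, both lower in 5 and 1 of each in 39. Of all 825 members, 77.8% were higher over this step, and whether neighbouring sites moved together was not tested.

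By function, the members were spread over all groups examined, and the share of persistent sites that were members ran from 10.3% to 16.0% in the 7 lists of genes, against 13.4% over all genes. In the list of oocyte and maternal-effect genes 12 of 97 persistent sites were members (12.4%), in Btg4, Ctcf, Dnmt1, Hsf1, Igf2bp2, Sall4, Setdb1, Taf4b and Tet3. Their medians over the 3 stages were 64.1%, 71.8% and 85.5%, and 6 were higher at the 1-cell stage and 0 lower by the exact test. Here and in the lists that follow, these counts stand beside the 51.3% higher and 2.45% lower of all tested sites, and nothing is read from them about a list. Meiotic and cell cycle regulators held 12 members of 75 persistent sites (16.0%), with medians of 73.1%, 78.3% and 100%, of which 8 were higher and 0 lower (all tested sites, 51.3% and 2.45%). The 5′ UTR site of Fbxo43, whose product keeps the MII oocyte arrested by inhibiting the anaphase-promoting complex, was at 89.1% of 165, 88.3% of 197 and 92.1% of 114 reads, a last step that did not pass (exact test, adjusted p = 0.434). In the 3′ UTR of Cdc25a, a phosphatase that activates cyclin-dependent kinases, the level was 76.9%, 78.7% and 90.7% of 108 reads (exact test for the last step, adjusted p = 0.0200; 0.633 with reads divided by 5).

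Translation factors and genes of mRNA decay held 11 members of 107 persistent sites (10.3%), each in a gene of its own, with medians of 67.2%, 75.8% and 91.4%, and 8 were higher and 0 lower (all tested sites, 51.3% and 2.45%). They included Btg4, Ybx3, the deadenylase subunit gene Cnot8, the cytoplasmic polyadenylation factor Cpeb3 and the initiation factor Eif4a1. Chromatin modifiers and remodelers held 27 of 174 (15.5%) in 19 genes such as Dnmt1, Setdb1, Eed and Kmt2d, with medians of 65.7%, 71.8% and 92.8%, and 13 were higher and 1 lower. Ubiquitin ligases, deubiquitinases and proteasome subunits held 32 of 231 (13.9%), of which 16 were higher and 1 lower. Ribosomal and mitochondrial proteins held 8 of 64 (12.5%), with medians of 63.2%, 60.9% and 75.5%, and 3 were higher and 0 lower. In the list of m5C enzymes, readers and related genes, Tet3 alone held members, 3 of 25 persistent sites (12.0%), of which 1 was higher.

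By position, 590 of the 825 members lay in the CDS (71.5%, 95% exact interval 68.3% to 74.6%), 148 in the 3′ UTR (17.9%, 15.4% to 20.7%) and 80 in the 5′ UTR (9.70%, 7.76% to 11.9%). At the other persistent sites the shares were 72.8%, 14.2% and 11.2%. The median levels at the 1-cell stage were 86.7% in the CDS, 91.1% in the 3′ UTR and 88.8% in the 5′ UTR. Within codons, 38.3% of the CDS members were at the first base, 28.8% at the second and 32.9% at the last, against 37.7%, 25.8% and 36.4% of the other CDS sites. A total of 817 members lay in protein-coding genes and 6 in lincRNA genes.

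By motif, 769 members were Type I and 56 Type II (6.79%, 5.17% to 8.72%), against 5.24% Type II among the other persistent sites. The Type II members had medians of 60.2% at GV, 63.5% at MII and 77.4% at the 1-cell stage, and the Type I members 64.2%, 72.9% and 87.9%. Of the Type II members, 23 (41.1%) were higher and 5 (8.93%) lower by the exact test, and of the Type I members 379 (49.3%) and 41 (5.33%), where 51.3% and 2.45% of all tested sites were. At the other persistent sites these shares were 37.3% and 4.66% for Type II (n = 279) and 52.8% and 2.70% for Type I (n = 5041). The lower share of rises in Type II was thus found outside the members too. The fourth letter of CUCNA was C in 53 of the 56. The deepest Type II site, in exon 2 of Tent5b (chromosome 4, position 133486720, CDS), was at 61% of 2442 reads at GV, 66.1% of 2383 reads at MII and 71.5% of 912 reads at the 1-cell stage (exact test for the last step, adjusted p = 0.00752). The Type I site of the same gene was below it at GV, at 57.8%, and above it at the 1-cell stage, at 87.3%. The 3′ UTR site of Phf5a, a splicing factor gene, was at 53.6%, 56.1% and 66.9% of 248 reads (exact test, adjusted p = 0.00744), and the CDS site of Chdh, the choline dehydrogenase gene, at 60.2%, 63.8% and 74.8% of 238 reads (exact test, adjusted p = 0.00830). Ankrd44 was at 60.2%, 70.3% and 77.3% of 366 reads (exact test, adjusted p = 0.0329). The CUCUA site in the polarity gene Pard3 was at 71.1%, 75.1% and 77.6% of 214 reads, and its last step did not pass (exact test, adjusted p = 0.621). None of these 5 last steps passed with reads divided by 5, with adjusted p from 0.497 to 1.00.

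Around the Type I members, the 4 bases after the site held 2.39 G on average (SD 0.837, n = 769 sites), against 2.22 (SD 0.856, n = 5037) at the other persistent Type I sites. From the first to the fourth of these bases the share of G was 38.8%, 70.5%, 70.5% and 59.7%, against 36.9%, 68.1%, 64.3% and 52.9%. With 3 or 4 G were 46.2% of the members (42.6% to 49.8%) and 37.4% of the others (36.0% to 38.7%), and with no G, as in Btg4, 7 members (0.910%). The most frequent stretches of 5 bases from the site on were CAGGG at 90 members (11.7%, against 8.35% of the others), CAGGA at 69 (8.97%, 7.06%) and CGGGG at 59 (7.67%, 5.65%). The mean number of G was 2.40 in sites at 50% to under 60% at GV and 2.40 in those at 80% or more. No test of members against others was made, and the shares are a description.

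In RNA folded in silico in windows centred on the site, the predicted pairing had the shape of a stem that starts at the site. Of the Type I members, 61.2% were paired at the site itself, 73.2% at the next base and 77.9% at the base 3 positions after it, while 44.7% were paired 2 bases before it and 44.9% 8 bases after it. At the other Type I sites these shares were 60.5%, 67.3%, 75.6%, 49.4% and 48.7%. For the members a second maximum lay 14 bases after the site, with 70.8% paired (67.5% to 74.0%) against 64.0% of the others (62.7% to 65.4%). In the Type II members, 29.1% were paired at the site (16 of 55 folded windows, 17.6% to 42.9%) and 27.3% at the base 4 positions after it. The median folding energy was -31.8 kcal/mol for all members and -30.5 kcal/mol for the others, and the median GC content of the window was 58.4% in both.

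**Figure D5:**
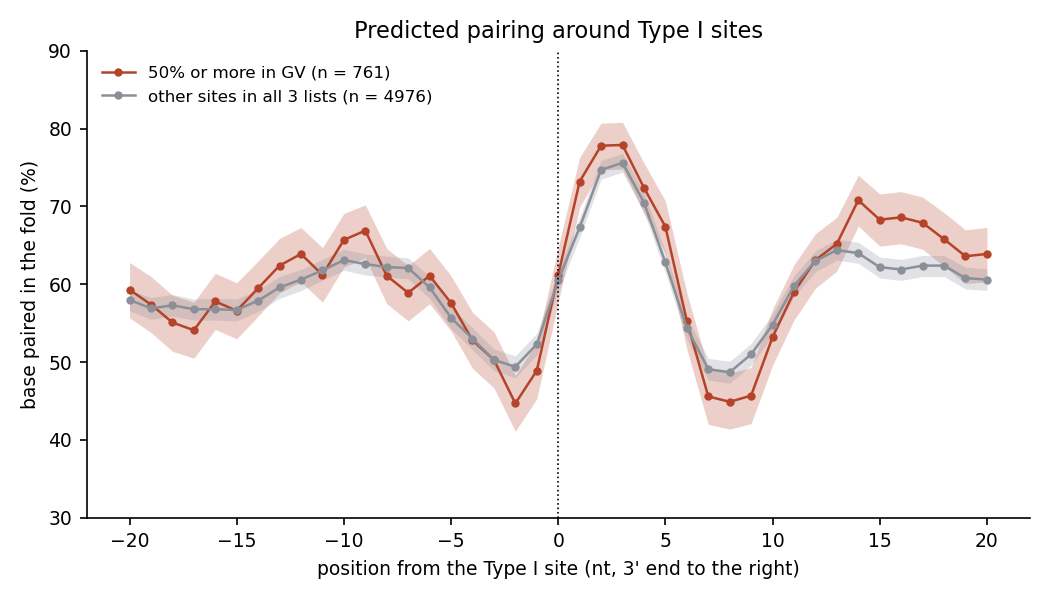
The share of windows in percent in which a base was paired in the predicted fold is plotted by position from the Type I site, for 761 sites at 50% or more at GV (red) and 4976 other sites in all 3 lists (grey); shaded bands are 95% exact binomial intervals. Both lines dip before the site, peak 3 bases after it, dip again 8 bases after it and rise once more, and the red line has the deeper dips and the higher peaks.

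Another called site of any list lay within 10 bases of 131 members (15.9%, 13.4% to 18.6%) and of 13.9% of the other persistent sites (13.0% to 14.8%). Only 12 members had another member within that distance.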

How the data were processed

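RNA bisulfite sequencing was done by the authors on GV oocytes, MII oocytes and 1-cell embryos, with 1 library per stage. Per the labels, reads were trimmed with cutadapt 1.13 and Trimmomatic 0.36 and aligned to the converted GRCm38 genome with HISAT2 2.10, and the rest to the converted transcriptome with Bowtie2 2.2.9. The authors deposited, for each called site, the coverage as an unnormalized count of C and T reads and the m5C level as a fraction of those reads, which is written here as a percentage. The deposited p-value, from the authors' binomial test of a site against its gene's conversion rate, served only as a check of the lists. Every listed site had at least 20 reads, a level of 10% and 5 unconverted reads, and no list gives sites that failed.

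Unconverted reads were taken as level times coverage, which was whole to within 2.9e-05 reads. Sites were joined by position and strand, and all on chromosomes were C in GRCm38. Gene symbols, regions (CDS before 5′ and 3′ UTR) and spliced sequence came from GENCODE M21 (Ensembl 96). Sites that start a CUCNA were taken as Type II and the remainder as Type I. Windows of 101 bases were folded at 37 °C with ViennaRNA 2.7.2. Sites in both the MII oocyte and 1-cell embryo lists were compared with a two-sided Fisher's exact test and Benjamini-Hochberg adjustment, with a threshold of 0.05. The script for this test was checked on simulated data. Shares and levels have 95% exact binomial intervals, which count sites for shares and reads for levels. The 95% intervals of medians were read from the ordered values of the sites. Log2 odds used 0.5 added to both counts. Python 3.11.15, scipy 1.17.1, pandas 2.3.3, numpy 2.4.6 and pysam 0.24.0 were used.

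The members, the gene lists and the tests were chosen with earlier results of these data known. Named sites were the 8 highest GV levels at 100 reads or more, the 8 deepest sites, the 6 largest called rises and falls at 50 reads or more, the 5 deepest Type II sites, the genes with most members (9 were tied at 3), the 3 sites on either side of the threshold, the 2 deepest members of each gene list and the 3 lowest MII and the 3 lowest 1-cell levels. Some sites under this rule are not reported here. Alternatives were other coverage and level limits, reads divided by 5, adjustment over the persistent sites alone, log2 odds, CUCCA alone, UTR before CDS and a 61-base folding window.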

Additional observations from a re-analysis of the deposited data

How the results depend on the processing

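Of 48 alternative values of 10 results, 22 moved, which means a count by over 1.5 times or a share, mean or median out of the 95% interval of the reported value. The other 26 did not, although a count could still differ, and the median difference on the log2 odds scale is compared by its sign alone. None turned a direction. With at least 50 reads at every stage there were 487 members, 97.5% of them at 50% or more in the MII oocyte, the median rise from MII oocyte to 1-cell embryo was 9.30 percentage points, and 255 were higher and 28 lower. With at least 100 reads there were 234 members, 99.1% and 95.7% of them at 50% or more in the MII oocyte and 1-cell embryo, the median rise was 8.11 points, 130 were higher and 11 lower, and the site base was paired in 65.5%. With the exact lower bound of the GV level at 50% or more, there were 600 members, of which 294 were higher and 31 lower, and the shares at 50% or more were 98.2% and 97.0%. With a GV level of 60% or more there were 499 members, the shares were 97.8% and 96.8%, and 239 were higher and 28 lower. With reads divided by 5, 41 were higher and 4 lower. With UTR before CDS, 62.4% lay in the CDS. Fewer members remain under stricter limits by construction, whereas the smaller median rise at higher coverage is a measured value whose cause was not tested.

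No paired analysis was possible because each stage had 1 library. The tests compare reads of these libraries, reads are not independent molecules, and coverage limits the 1-cell levels most, with a median of 59 reads at the members. A site missing from a list was not measured here, so the members describe transcripts with enough reads at every stage.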
